A study of Mus musculus with 7 samples.

Results

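Blood vessels of the optic nerve are read here through 37 genes of 22880 in the expression table: 27 that are typical of endothelial cells and the blood-brain barrier they form, and 10 that are typical of mural cells, the pericytes and smooth muscle cells around them. The genes were listed by what they are known to mark, with earlier results of these data known. Gene expression was measured by sequencing polyadenylated RNA from optic nerves of mice at P14, postnatal day 14, with both nerves of a mouse making 1 sample. The 4 control (CT) mice carried the genotype FASN lox/lox without Cre, and the 3 conditional mutant (cMU) mice were olig2cre FASN lox/lox, so that every mouse carried the floxed allele of fatty acid synthase (Fasn) and the mutants alone carried the Cre. The strain background was C57Bl/6, with the floxed allele coming from a mixed 129X1/SvJ, C57BL/6 and DBA origin. The Olig2 promoter drives Cre in the oligodendrocyte (OL) lineage, so the vessel cells were not the targeted cells, and whole nerve was sequenced, not sorted cells.

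Brain and optic nerve capillaries are lined by endothelial cells that seal their borders with tight junctions, take up nutrients through dedicated carriers and pump foreign compounds back into the blood. Pericytes embedded in the capillary wall help to keep this barrier closed, while smooth muscle cells ring the arteries and contract. The barrier is built under signals from the surrounding tissue, among them the Wnt ligands and Norrin. Mfsd2a, a lipid carrier of these endothelial cells, brings lysophosphatidylcholine with docosahexaenoic acid into the brain and restrains vesicle traffic across the cell.

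Ly6c1 and Abcb1a have near copies in the genome, and the coding sequences of Ly6c1 and its copy are printed in part because reads from them are hard to assign. Ly6c1 (chr15:75044018-75048830, minus strand, GRCm38) encodes a surface protein of endothelial cells held by a lipid anchor, and its near copy Ly6c2 is known from monocytes. The longest reading frames of both GENCODE transcripts had 396 bases and differed at 9 of them, with 97.7% identity and an identical run of up to 188 bases. Bases 1 to 300 are shown, with the differences among them in capitals.
Ly6c1: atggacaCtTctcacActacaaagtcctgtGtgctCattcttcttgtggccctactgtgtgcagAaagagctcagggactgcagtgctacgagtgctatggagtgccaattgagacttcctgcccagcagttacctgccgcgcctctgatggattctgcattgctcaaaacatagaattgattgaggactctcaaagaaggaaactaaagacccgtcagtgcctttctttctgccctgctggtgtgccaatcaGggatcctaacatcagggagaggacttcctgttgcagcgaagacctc
Ly6c2: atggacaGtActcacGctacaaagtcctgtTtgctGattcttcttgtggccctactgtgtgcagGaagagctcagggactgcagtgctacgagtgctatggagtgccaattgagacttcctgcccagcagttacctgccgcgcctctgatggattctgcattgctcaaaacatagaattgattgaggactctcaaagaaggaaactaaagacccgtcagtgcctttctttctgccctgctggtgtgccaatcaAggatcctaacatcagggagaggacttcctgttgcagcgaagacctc
Of all 100-base windows in the longest Ly6c1 transcript, 15.3% also occurred in Ly6c2, whose mean level over the 7 samples was 1.03 FPKM. Ly6c1 itself lay between 44.8 and 52.5 FPKM in the control samples and between 48.1 and 63.1 FPKM in the mutant samples, so the level credited to the copy was small beside it.

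Levels are given as FPKM, fragments per length of transcript and depth of sequencing, and a difference as the log2 fold change of FPKM + 0.5, mutant over control, with its standard error (SE). This scale understates the change of low genes. Between 27452792 and 43462526 reads stood behind a sample. Fasn, the floxed gene, lay between 169 and 228 FPKM in the control samples and between 49.0 and 69.3 FPKM in the mutant samples, a log2 fold change of -1.86 (SE 0.138, limma-trend adjusted p = 0.00312). Over the 13866 genes tested the median log2 fold change was 0.05, and 363 genes, or 2.62%, passed an adjusted p of 0.05.

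All 27 endothelial genes were detected above the filter, with control means between 2.56 and 125 FPKM, so the defining markers of the vessel lining were present in every group. The mean was higher in the mutant samples for 25 of the 27 genes and lower for 2, with a median log2 fold change of 0.27 and a range from -0.20 to 0.60; among all tested genes 60.1% had a log2 fold change above 0. The 2 genes with a lower mean were Mfsd2a and Sox17. No endothelial gene passed an adjusted p of 0.05 in limma-trend (lowest adjusted p = 0.0603), against 2.62% of all tested genes. At an unadjusted p of 0.05, 16 of the 27 (59.3%) were higher and 1 was lower, against 15.9% and 8.5% of all genes. In 14 genes (51.9%) every mutant sample lay above every control sample, against 12.9% of all genes, and in none did every mutant sample lie below, against 8.26% of all genes. In a whole nerve, a change in the number of vessel cells and a change in RNA per cell cannot be told apart. RNA of the same genes made by other cells of the nerve cannot be told apart from them either.

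The replicate numbers were taken as pairs, although the labels do not say what they stand for. Over all tested genes, same-numbered control and mutant samples deviated together, with correlations of 0.168 to 0.409. Those of other pairs ran from -0.353 to 0.205, so the ranges overlapped. A fit with the replicate number as a block leaves control sample 4 without a partner, so its log2 fold changes equal those without that sample. It called 7 endothelial genes higher (Cdh5, Ocln, Flt1, Abcb1a, Abcg2, Pltp and Itm2a) and none lower. Their blocked adjusted p-values in limma-trend lay between 0.0251 and 0.0437, and between 0.0199 and 0.329 over all alternatives. That share, 25.9%, stood beside 6.42% of all tested genes called higher with the block. All 7 were highest in mutant sample 1. Without mutant sample 1 their log2 fold changes lay between 0.28 and 0.47 and their adjusted p-values between 0.0991 and 0.329. Without mutant sample 2, limma-trend called 3 endothelial genes higher (Flt1, Pltp and Itm2a), against 4.06% of all genes, and with samples weighted by their spread (array weights) it called 7 (Ocln, Podxl, Flt1, Kdr, Abcg2, Pltp and Itm2a), against 6.55%.

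**Figure D1:**
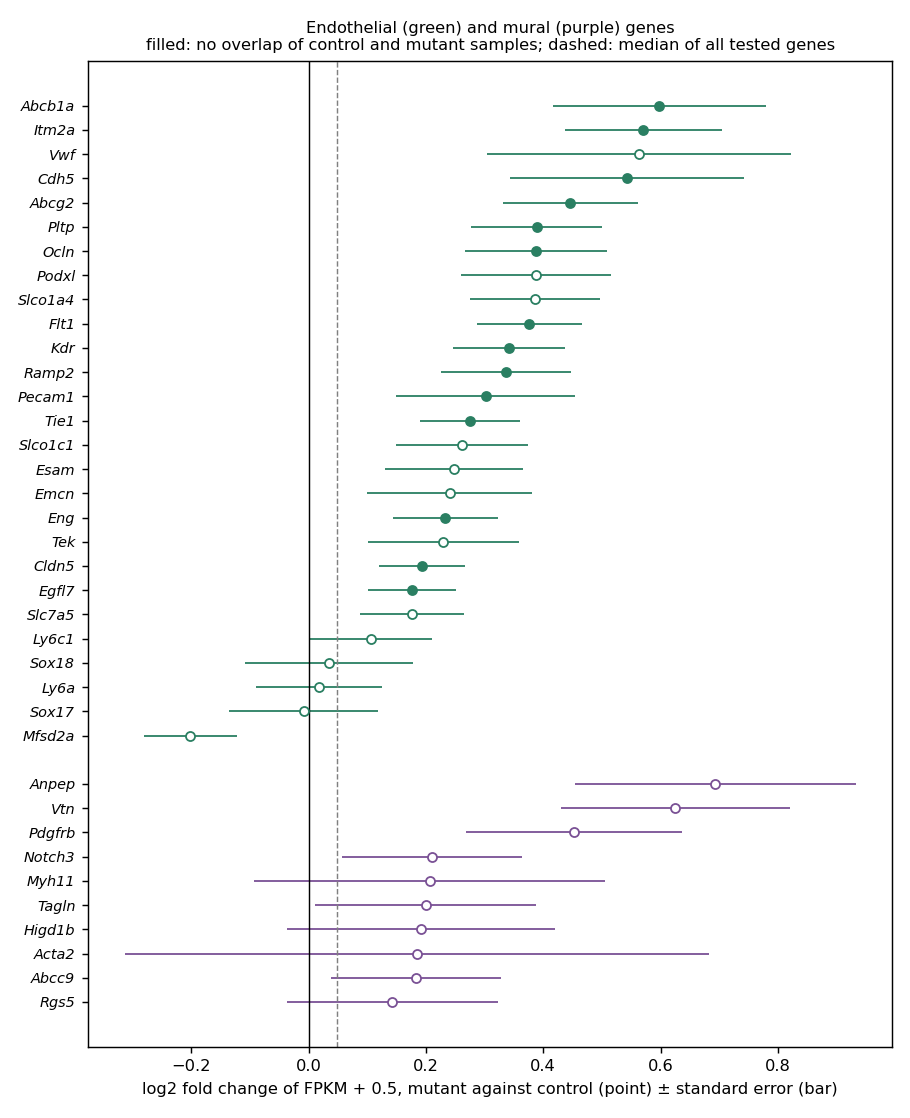
Log2 fold change of FPKM + 0.5 between mutant and control samples (horizontal axis) for the 27 endothelial genes and the 10 mural genes, with bars for ± 1 SE. Filled points mark the 14 genes whose mutant samples all lay above all control samples, and the dashed line is the median of 0.05 over all tested genes. Most points lie to the right of the line, and Mfsd2a is the gene farthest to its left.

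The 7 junction and surface adhesion genes all had higher means in the mutant samples, with 4 at an unadjusted p of 0.05, against 15.9% of all genes. In 4 every mutant sample lay above every control sample, against 12.9% of all genes. Cdh5, the VE-cadherin of endothelial adherens junctions, gave 18.3, 12.2, 17.0 and 16.9 FPKM in control samples 1 to 4 and 33.1, 18.7 and 20.8 FPKM in mutant samples 1 to 3. The mutant samples all lay above the control samples, with sample 1 far above the other two. The means were 16.1 ± 2.69 (SD, n = 4) and 24.2 ± 7.76 (SD, n = 3) FPKM, a log2 fold change of 0.54 (SE 0.199, limma-trend adjusted p = 0.145). Without mutant sample 1 the log2 fold change was 0.30. Cldn5, the main claudin of the brain endothelial tight junction, gave 32.02, 31.3, 28.9 and 31.2 FPKM in the control samples and 32.9, 38.8 and 34.5 FPKM in the mutant samples. The control samples were close together and mutant sample 2, not sample 1, was the highest. Its log2 fold change was 0.19 (SE 0.0731, limma-trend adjusted p = 0.153), and 0.13 without mutant sample 2. Ocln, or occludin, a second membrane protein of tight junctions, gave 7.34, 5.89, 5.72 and 7.67 FPKM in the controls and 9.68, 8.13 and 8.64 FPKM in the mutants. The groups did not overlap, and the log2 fold change was 0.39 (SE 0.121, limma-trend adjusted p = 0.106).

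Pecam1, the CD31 adhesion protein of endothelial borders, gave 16.6, 14.7, 15.8 and 10.2 FPKM in the controls and 16.7, 19.1 and 16.8 FPKM in the mutants. Control sample 1 and mutant sample 1 were nearly level, so the groups were separated by a narrow margin. Its log2 fold change was 0.30 (SE 0.153, limma-trend adjusted p = 0.258), and 0.15 without control sample 4, the lowest. The replicate block gives the same value, since control sample 4 has no partner in it. Podxl, which codes for podocalyxin, a sialomucin of the luminal surface, gave 10.1, 7.06, 8.05 and 7.34 FPKM in the controls and 11.97, 9.76 and 10.5 FPKM in the mutants. Control sample 1 overlapped the mutant samples. The log2 fold change of Podxl was 0.39 (SE 0.127, limma-trend adjusted p = 0.119). Esam, an adhesion molecule of endothelial tight junctions, and Emcn, a sialomucin of capillaries and veins, had log2 fold changes of 0.25 and 0.24, and their groups overlapped. Without control sample 4 these were 0.16 and 0.12.

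Of the 6 receptor genes, 5 were higher at an unadjusted p of 0.05, against 15.9% of all tested genes. The same 5 had all mutant samples above all control samples, against 12.9% of all tested genes. Flt1, the VEGF receptor that often acts as a decoy for its ligand, gave 13.1, 11.2, 13.3 and 11.8 FPKM in the controls and 17.5, 14.8 and 16.3 FPKM in the mutants. All mutant samples stood clear of the control samples. The means were 12.3 ± 1.03 (SD, n = 4) and 16.2 ± 1.38 (SD, n = 3) FPKM, with a log2 fold change of 0.38 (SE 0.0899, limma-trend adjusted p = 0.0620). Kdr, the main signalling receptor for VEGF, gave 12.2, 10.2, 9.69 and 10.9 FPKM in the controls and 13.9, 12.6 and 14.7 FPKM in the mutants. Here mutant sample 3 was the highest, and the log2 fold change was 0.34 (SE 0.0953, limma-trend adjusted p = 0.0862). Tie1, the orphan partner of the angiopoietin receptor, gave 6.07, 6.30, 6.62 and 6.47 FPKM in the controls and 8.21, 8.21 and 7.04 FPKM in the mutants. The controls were tight, and the log2 fold change was 0.27 (SE 0.0857, limma-trend adjusted p = 0.106).

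Eng, the TGF-beta co-receptor endoglin, gave 17.5, 15.1, 18.0 and 14.9 FPKM in the controls and 20.8, 18.4 and 18.7 FPKM in the mutants. The gap between the groups was small beside the spread, with a log2 fold change of 0.23 (SE 0.0896, limma-trend adjusted p = 0.158). Ramp2, which pairs with the calcitonin receptor-like receptor to sense adrenomedullin, gave 39.5, 35.01, 41.9 and 37.6 FPKM in the controls and 59.0, 43.4 and 45.1 FPKM in the mutants. Its log2 fold change of 0.34 (SE 0.111, limma-trend adjusted p = 0.119) is uncertain as a value of Ramp2, because 72.8% of the windows in its longest transcript were shared with Vps25 on the same strand, at a mean of 61.5 FPKM. The value was 0.20 without mutant sample 1. Tek, the Tie2 receptor for angiopoietins, overlapped between the groups, with a log2 fold change of 0.23, and 0.15 without control sample 4.

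The 6 barrier transport genes did not move as one, since 4 were higher and 1 was lower at an unadjusted p of 0.05, against 15.9% and 8.5% of all genes. Abcb1a, the P-glycoprotein drug pump, had the largest log2 fold change of the endothelial genes and gave 34.8, 20.6, 32.9 and 31.5 FPKM in the controls and 53.8, 38.6 and 42.9 FPKM in the mutants. Control sample 2 was the lowest and all mutant samples lay above the controls. The means were 29.9 ± 6.39 (SD, n = 4) and 45.1 ± 7.81 (SD, n = 3) FPKM, a log2 fold change of 0.60 (SE 0.181, limma-trend adjusted p = 0.101). Its near copy Abcb1b shared 7.72% of its windows and was at 4.78 FPKM. Abcg2, a second drug efflux pump, gave 44.1, 33.5, 42.7 and 38.4 FPKM in the controls and 62.7, 48.8 and 51.3 FPKM in the mutants. Its groups did not overlap, and the log2 fold change was 0.45 (SE 0.115, limma-trend adjusted p = 0.0728).

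Slco1c1, a thyroid hormone carrier, gave 15.1, 15.2, 12.6 and 13.1 FPKM in the controls and 14.6, 19.6 and 16.6 FPKM in the mutants. Mutant sample 1 lay within the control range, and the log2 fold change was 0.26 (SE 0.113, limma-trend adjusted p = 0.196), or 0.15 without mutant sample 2. Slco1a4, an organic anion carrier, gave 37.4, 27.3, 30.6 and 31.8 FPKM in the controls and 42.4, 45.4 and 36.9 FPKM in the mutants. Only mutant sample 3 fell below a control sample. The log2 fold change of Slco1a4 was 0.39 (SE 0.111, limma-trend adjusted p = 0.0911). Slc7a5, the large neutral amino acid carrier, had a log2 fold change of 0.18 with overlapping groups, which was 0.29 without mutant sample 1 and 0.10 without mutant sample 3. On the other strand, Gm20388 overlaps 26545 bases of Slc7a5, at a mean of 18.7 FPKM.

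Mfsd2a had a lower mean in the mutants. It gave 88.8, 84.2, 92.0 and 93.5 FPKM in control samples 1 to 4 and 69.0, 84.6 and 80.7 FPKM in mutant samples 1 to 3. Mutant sample 1 was the lowest of all, mutant sample 3 was also below every control, and mutant sample 2 lay above control sample 2. The means were 89.6 ± 4.13 (SD, n = 4) and 78.1 ± 8.11 (SD, n = 3) FPKM, and the log2 fold change was -0.20 (SE 0.0790, limma-trend adjusted p = 0.163). Mfsd2a was the 1 endothelial gene with a log2 fold change below 0 in every alternative, and without mutant sample 1 it was -0.12.

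**Figure D2:**
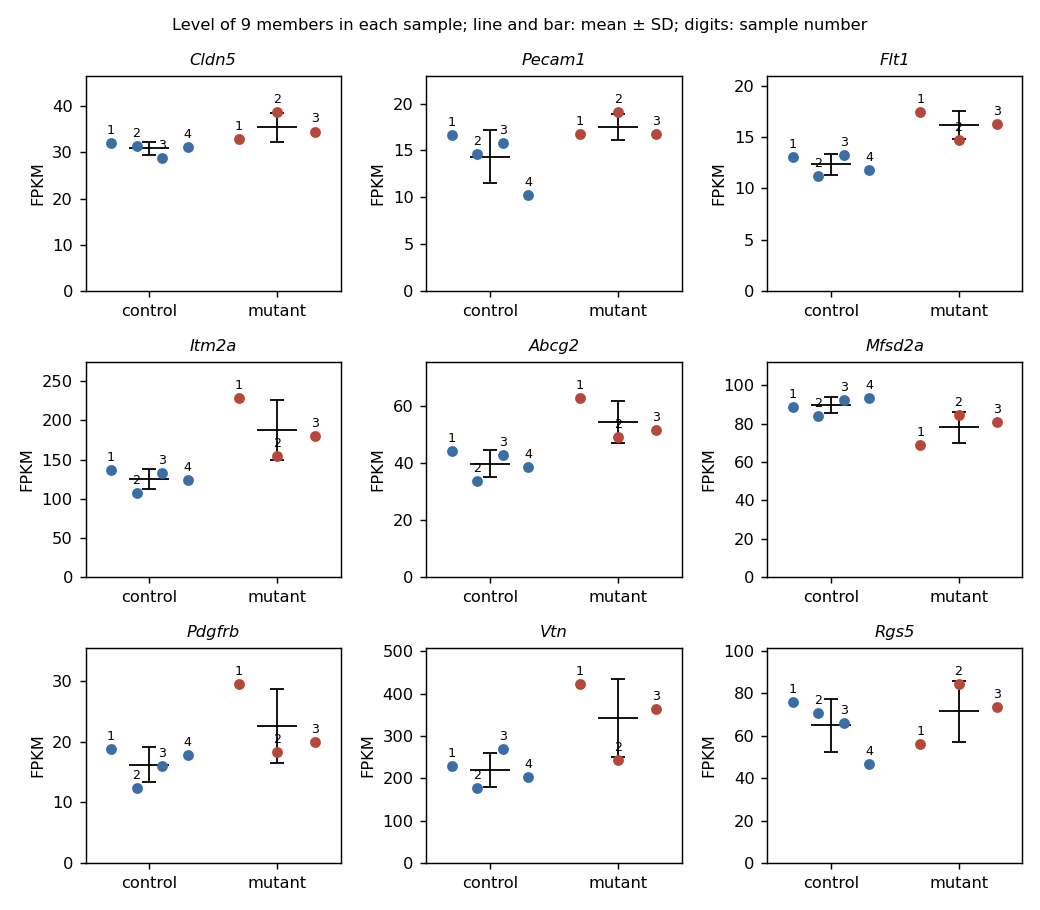
FPKM (vertical axis, from 0) of 9 of the genes in each control and mutant sample. Points are mice with their sample number, the line is the mean and the bar ± 1 SD. Mutant sample 1 is highest for Flt1, Itm2a, Abcg2, Pdgfrb and Vtn, mutant sample 2 for Cldn5, Pecam1 and Rgs5, and Mfsd2a is lowest in mutant sample 1.

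Itm2a, a membrane protein common in brain endothelial cells, had the lowest adjusted p of all 37 genes and the highest control mean of the endothelial genes. It gave 136, 107, 133 and 124 FPKM in the controls and 229, 154 and 180.3 FPKM in the mutants. All mutant samples lay above all controls, by the widest margin in mutant sample 1. The means were 125 ± 12.8 (SD, n = 4) and 188 ± 38.1 (SD, n = 3) FPKM, and the log2 fold change was 0.57 (SE 0.133, limma-trend adjusted p = 0.0603). Without mutant sample 1 the log2 fold change of Itm2a was 0.42. Its control mean of 125 FPKM stood above those of Cldn5, Cdh5 and Pecam1, at 30.9, 16.1 and 14.3 FPKM. Which cells of the whole nerve made Itm2a RNA was not tested.

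Of the 3 secreted proteins, Pltp and Egfl7 separated the groups and Vwf did not. Pltp, the phospholipid transfer protein, gave 72.8, 62.5, 74.5 and 79.2 FPKM in the controls and 109.9, 81.6 and 93.8 FPKM in the mutants. Its log2 fold change was 0.39 (SE 0.111, limma-trend adjusted p = 0.0911), and 1515 bases of the gene overlap Ctsa on the other strand. Egfl7, an endothelial matrix protein, gave 20.1, 20.2, 21.2 and 20.6 FPKM in the controls and 25.9, 22.7 and 21.4 FPKM in the mutants. Mutant sample 3 stood barely above control sample 3, and the log2 fold change was 0.18 (SE 0.0751, limma-trend adjusted p = 0.191), or 0.10 without mutant sample 1. Vwf, the clotting factor carrier of larger vessels, gave 25.5, 18.0, 37.1 and 19.2 FPKM in the controls and 48.5, 27.8 and 33.4 FPKM in the mutants. Control sample 3 lay above mutant samples 2 and 3, and a log2 fold change of 0.56 came with an SE of 0.259 (limma-trend adjusted p = 0.219). For Vwf it was 0.34 without mutant sample 1 and 0.25 with array weights.

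The remaining 4 endothelial genes showed no direction that held. Ly6c1 and Ly6a, both surface proteins with a lipid anchor, had log2 fold changes of 0.11 and 0.02, and Sox17 and Sox18, transcription factors of endothelial identity, had -0.01 and 0.03. Each of the 4 took both signs over the alternatives.

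For the 14 genes without overlap, the exact permutation test of mutant against control FPKM gave a two-sided p of 0.0571, the smallest that 4 against 3 samples allow, so this test could not reach 0.05.

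All 10 mural genes were detected as well, with control means between 1.02 and 219.6 FPKM, and all 10 had higher means in the mutant samples. Their median log2 fold change was 0.20, with a range from 0.14 to 0.69, and the median was 0.40 without control sample 3. In limma-trend 0 of the 10 passed an adjusted p of 0.05 (lowest adjusted p = 0.106), against 2.62% of all tested genes. At an unadjusted p of 0.05, 3 of the 10 were higher, against 15.9% of all genes, and none had all mutant samples above all controls, against 12.9%. With the replicate block the same 3 genes, Pdgfrb, Vtn and Anpep, were called higher, against 6.42% of all genes. Their blocked adjusted p-values in limma-trend lay between 0.0251 and 0.0295, and between 0.0251 and 0.427 over all alternatives. Without mutant sample 1, the highest for all 3, their log2 fold changes lay between 0.25 and 0.45 and their adjusted p-values between 0.254 and 0.427. Without mutant sample 2, limma-trend called 1 mural gene, Vtn, higher, against 4.06% of all genes.

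Among the 7 pericyte and shared mural genes, Pdgfrb, the receptor by which pericytes are recruited to vessels, gave 18.8, 12.3, 16.0 and 17.8 FPKM in the controls and 29.5, 18.3 and 19.9 FPKM in the mutants. Mutant sample 1 stood apart and mutant sample 2 lay within the control range. The means were 16.2 ± 2.85 (SD, n = 4) and 22.6 ± 6.08 (SD, n = 3) FPKM, a log2 fold change of 0.45 (SE 0.184, limma-trend adjusted p = 0.176), and 0.25 without mutant sample 1. Vtn, or vitronectin, a matrix protein made by brain pericytes, was the most abundant mural gene with 228, 177, 269 and 204 FPKM in the controls and 424, 243 and 364 FPKM in the mutants. Mutant sample 2 lay below control sample 3, and the log2 fold change was 0.62 (SE 0.195, limma-trend adjusted p = 0.106). Anpep, the aminopeptidase CD13, had the largest log2 fold change of the 37 genes and gave 10.2, 6.04, 8.90 and 8.98 FPKM in the controls and 20.6, 9.93 and 13.02 FPKM in the mutants. Mutant sample 1 was the highest and mutant sample 2 fell below control sample 1. The log2 fold change of Anpep was 0.69 (SE 0.239, limma-trend adjusted p = 0.131), and 0.42 without mutant sample 1.

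Rgs5, a regulator of G protein signalling in pericytes, did not follow Pdgfrb. It gave 76.0, 70.7, 66.0 and 46.8 FPKM in the controls and 56.3, 84.6 and 73.6 FPKM in the mutants. Mutant sample 1 was lower than 3 of the 4 controls and mutant sample 2 was the highest. Its log2 fold change was 0.14 (SE 0.180, limma-trend adjusted p = 0.662), and with the replicate block it was -0.0052. Abcc9, a subunit of pericyte potassium channels, Higd1b, a mitochondrial protein enriched in pericytes, and Notch3, the mural receptor for endothelial Notch ligands, had log2 fold changes of 0.18, 0.19 and 0.21 with overlapping groups. Without mutant sample 2 those of Abcc9 and Higd1b were 0.0661 and -0.12, and without control sample 2 that of Notch3 was 0.0961. Higd1b rested on as few as 39.0 reads in a sample.

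The 3 contractile genes mark smooth muscle, and Acta2 and Myh11 varied widely between control mice. Acta2, smooth muscle actin, gave 7.81, 5.63, 10.3 and 1.78 FPKM in the controls and 9.82, 6.52 and 3.76 FPKM in the mutants. The controls spanned the whole range of the mutants, and a log2 fold change of 0.18 came with an SE of 0.498 (limma-trend adjusted p = 0.855). It was -0.28 with the replicate block. Myh11, smooth muscle myosin, lay between 0.313 and 1.75 FPKM in the controls and between 1.07 and 1.19 FPKM in the mutants. Tagln, the actin-binding protein transgelin, was between 12.4 and 20.5 FPKM in the controls and between 14.7 and 20.7 FPKM in the mutants, and the group difference of all 3 genes lay within the spread between mice. The log2 fold change of Tagln was 0.20, and 0.0398 without mutant sample 1.

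The mutant samples did not share 1 profile over the vessel genes. Mutant sample 1 was the highest of the 7 samples for 14 of the 27 endothelial genes (51.9%), against 32.7% of all tested genes, and mutant sample 2 for 8 (29.6%), against 7.66%. The 14 genes led by mutant sample 1 included Cdh5, Abcb1a, Itm2a and Pltp, with median ratios to the control mean of 1.50, 1.18 and 1.29 in mutant samples 1 to 3. The 8 genes led by mutant sample 2 included Cldn5, Pecam1, Slco1c1 and Slco1a4, with median ratios of 1.06, 1.30 and 1.16. Mural genes were divided as well: Pdgfrb, Vtn, Anpep and Tagln were highest in mutant sample 1, with median ratios of 1.88, 1.12 and 1.38, whereas Rgs5, Abcc9 and Higd1b were highest in mutant sample 2, with 0.892, 1.37 and 1.13. These groups of genes were formed from the values themselves, so the ratios describe them and test nothing. Among the controls, sample 2 was the lowest of all samples for 12 endothelial genes (44.4%), against 26.7% of all tested genes. Leaving out mutant sample 1 gave 14 endothelial genes higher at an unadjusted p of 0.05, against 10.8% of all genes, and 17 without overlap, against 16.3%, with a median log2 fold change of 0.29.

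**Figure D3:**
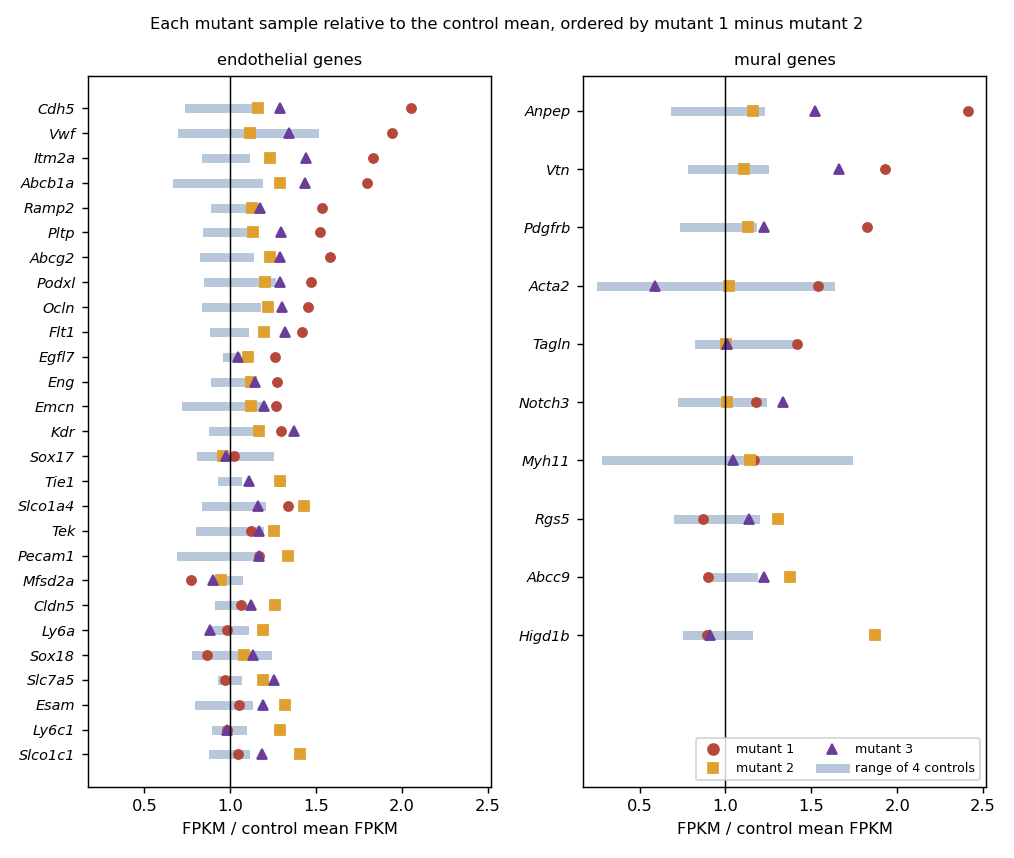
FPKM of each mutant sample divided by the control mean (horizontal axis), for endothelial genes on the left and mural genes on the right, ordered by the ratio of mutant sample 1 minus that of mutant sample 2. Grey-blue bars are the range of the 4 controls. Mutant sample 1 leads at the top, from Cdh5 and Anpep, and mutant sample 2 at the bottom, down to Slco1c1 and Higd1b.

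Averaged over the list, each endothelial gene taken as a log2 difference from its control mean, the control samples 1 to 4 stood at 0.09, -0.12, 0.09 and -0.06 and the mutant samples 1 to 3 at 0.35, 0.26 and 0.24. All mutant samples were above all controls on this average. Over all tested genes the same average was -0.04 to 0.03 in the controls and 0.14, 0.000698 and 0.08 in mutant samples 1 to 3. Part of the offset in mutant samples 1 and 3 was thus shared by the average of all genes. For the mural genes the same averages were 0.18, -0.15, 0.27 and -0.30 in the controls and 0.44, 0.27 and 0.21 in the mutants, so that control sample 3 lay above mutant sample 3.

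Markers of other cells moved with the groups and with single samples, and their part in the vessel results was not tested. The summed FPKM of 8 OL lineage markers was 51103 to 57877 in the controls and 37132 to 47326 in the mutants, with all mutant samples below the controls for 6 of the 8. As a share of all summed FPKM this was 9.76% to 10.5% and 6.90% to 8.89%. The sum of 6 astrocyte markers was 2559 to 2999 FPKM in the controls and 3297 to 4072 FPKM in the mutants, with 5 of 6 genes above, and that of 6 microglia markers was 165 to 202 and 205 to 226 FPKM, with 1 of 6 above. For 10 meningeal fibroblast markers the controls held 2156 to 2811 FPKM and the mutants 2794 to 5572 FPKM, with 3 of 10 genes above. The highest sum was in mutant sample 1. The same sample led for 4 of the 10 mural genes, Pdgfrb, Vtn and Anpep among them. It also led for 14 of the 27 endothelial genes, against 32.7% of all tested genes. For 9 skeletal muscle markers the sums were 3.58 to 4.53 FPKM in the controls and 5.25 to 76.6 FPKM in the mutants, with 3 of 9 genes above and the highest sum in mutant sample 2. The 6 blood cell markers summed to 2852 to 12728 FPKM in the controls, highest in control sample 2, and to 3817 to 5597 FPKM in the mutants, with no gene apart. The sums of 6 lymphatic endothelial markers, 4 of them past the filter, were 53.2 to 61.0 and 65.9 to 76.4 FPKM, with 1 of 6 genes above. That gene was Pdpn, with means of 33.6 FPKM in the controls and 45.6 FPKM in the mutants. Most of the rest of the sum was Prox1, at a mean of 18.4 FPKM in both groups. Sums of 5 perivascular macrophage markers were 25.3 to 41.5 and 36.2 to 55.0 FPKM, with 1 of 5 above. Those of 6 retinal markers were 0.274 to 0.438 and 0.266 to 0.447 FPKM, with none of the 6 past the filter. No marker in these lists was at 0 in all samples. Of all tested genes, 12.9% had every mutant sample above every control and 8.26% had every mutant sample below.

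**Figure D4:**
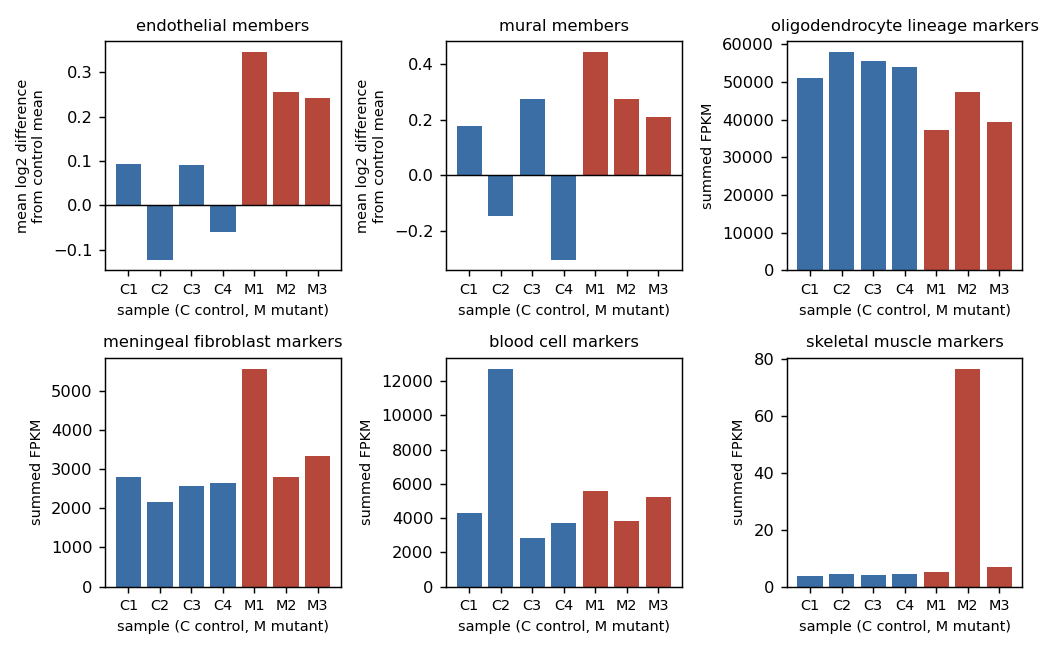
Mean log2 difference from the control mean over the endothelial and the mural genes (first 2 panels), and summed FPKM of 4 marker lists (other panels), in control samples C1 to C4 and mutant samples M1 to M3. Each bar is 1 mouse. The endothelial average is higher in all mutants, the fibroblast sum is highest in M1 at 5572 FPKM, the blood sum in C2 at 12728 FPKM and the skeletal muscle sum in M2 at 76.6 FPKM.

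A wider list of 117 other genes of vessel growth, barrier function and the vessel wall was read in the same way, and 108 passed the filter. Of these, 92 had higher and 16 lower means in the mutant samples, with a median log2 fold change of 0.25. In limma-trend 6 genes rose and 1 fell at an adjusted p of 0.05, against 1.26% and 1.36% of all tested genes in these directions. At an unadjusted p of 0.05, 43 were higher and 3 lower, against 15.9% and 8.5% of all genes, and in 33 all mutant samples lay above the controls, against 12.9%. With the replicate block 21 were called higher and 2 lower, against 6.42% and 1.94% of all genes. None of the 7 calls of limma-trend held when any 1 control, mutant sample 1 or mutant sample 3 was left out. Without mutant sample 2, 7 genes of the list were called in either direction. That fit called 4.06% of all genes higher. Its share of all genes in either direction is not given here, so the count of 7 has no matching background.

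Cd34, a sialomucin of capillary endothelium, gave 29.5, 26.1, 29.8 and 26.9 FPKM in the controls and 38.1, 36.7 and 36.7 FPKM in the mutants. The 3 mutant samples were nearly level and far above the controls, with a log2 fold change of 0.40 (SE 0.0669, limma-trend adjusted p = 0.0274). Esm1, a proteoglycan of endothelial tip cells, rose from a low level: 0.440, 0.534, 0.483 and 0.564 FPKM in the controls and 1.61, 0.982 and 1.06 FPKM in the mutants. The log2 fold change of Esm1 was 0.76 (SE 0.155, limma-trend adjusted p = 0.0439). Angpt1, the ligand that stabilises vessels through Tek, gave 9.80, 7.60, 8.43 and 9.59 FPKM in the controls and 13.1, 12.9 and 11.8 FPKM in the mutants. Its log2 fold change was 0.49 (SE 0.100, limma-trend adjusted p = 0.0439), while that of its receptor gene Tek was 0.23 and did not pass. Ets1, an endothelial transcription factor, and Tm4sf1, an endothelial surface protein, rose with log2 fold changes of 0.36 and 0.58 (limma-trend adjusted p = 0.0454 and 0.0471), and all mutant samples lay above all controls in both.

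Cspg4, the NG2 proteoglycan, which marks OL progenitors as well as pericytes, fell: it gave 11.8, 9.70, 13.03 and 12.2 FPKM in the controls and 8.36, 7.78 and 8.31 FPKM in the mutants. The log2 fold change was -0.49 (SE 0.103, limma-trend adjusted p = 0.0474), opposite in sign to that of the pericyte receptor Pdgfrb. The other genes with the smallest p-values among those with lower means were Jam3, Tfrc, Wnt7a and Mcam. Jam3, a junctional adhesion molecule, gave 139, 144, 136 and 129 FPKM in the controls and 105, 122 and 105 FPKM in the mutants, with a log2 fold change of -0.31 (SE 0.0720, limma-trend adjusted p = 0.0574). With the replicate block Jam3 passed, at an adjusted p of 0.0377 in limma-trend, and its adjusted p ranged from 0.0156 to 0.160 over all alternatives. Tfrc, the transferrin receptor, Wnt7a, a ligand for barrier formation, and Mcam, an adhesion protein of vessel cells, had log2 fold changes of -0.21, -0.30 and -0.13 and did not pass. That of Mcam was -0.0149 without mutant sample 1. Which cells of the whole nerve made the RNA of Jam3, Tfrc, Wnt7a and Mcam was not tested. Of the 12 genes of Wnt and Norrin signalling in the list, 10 had higher means, against 60.1% of all genes. At an unadjusted p of 0.05, 6 were higher, against 15.9%, and with the replicate block 4 were called higher, against 6.42%.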

How the data were processed

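Per the labels, poly(A) RNA was sequenced on an Illumina HiSeq instrument. The authors aligned reads to GRCm38 with STAR 2.5.1b, quantified genes with RSEM 1.2.22, and deposited FPKM and a normalised count signal for each sample. The deposited comparison columns were not used. The strand setting of the counting is not given in the sources used here. The FPKM of 7 samples were fitted with limma-trend (limma 3.58.1, R 4.3.3) on log2(FPKM + 0.5), genotype only, for genes of at least 0.5 FPKM in 3 samples, with Benjamini-Hochberg adjustment. The study's count model was not used because FPKM are not counts. Reads estimated from the normalised counts were not all whole either, with 72.4% to 78.7% of low values whole in a sample. Reads behind a value were estimated from the step of 0.01 reads left by RSEM. Intervals were not derived from them. Same-numbered control and mutant samples correlated at 0.168 to 0.409 over 3 pairs, and others at -0.353 to 0.205. The numbers were taken as pairs from these values alone. Control sample 4 has no partner, so blocked log2 fold changes equal those without control sample 4. The members and lists were chosen with earlier results of these data known. Values in every sample are given for members at an unadjusted p of 0.05, the 3 largest changes in each class and 7 fixed genes. From the wider list, all calls and the 5 smallest p-values per direction are named. The values of 1 called gene of the wider list are not reported here. Alternatives covered pseudocount, filter, scaling, normalised counts, array weights, variance trend, replicate block and each sample left out. The fit was tested on simulated data.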

Additional observations from a re-analysis of the deposited data

Results flagged for a closer look

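Of 48 sets of 4 control values examined, 1 held a sample far from the others. Tagln was at 20.5 FPKM in control sample 3, and its distance to the nearest other control took up 0.939 of the range of the 4 controls, above the critical value of 0.829. Chance flags about 1 in 20 such sets.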

How the results depend on the processing

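Over 16 alternatives, 543 of the values of the 37 genes kept their direction and side of the threshold, 21 values in 12 genes passed the threshold in the same direction, and 27 values in 9 genes changed sign; the cause was not tested. Endothelial calls numbered 0 in the comparison as reported, 7 with the replicate block, 7 with array weights, and 0 to 3 with 1 sample left out, 3 of them without mutant sample 2. Mural calls numbered 0, then 3 with the replicate block, and 0 to 1 with 1 sample left out. The mural median log2 fold change ran from 0.15 to 0.40 with 1 sample left out, highest without control sample 3. Calls in the wider list numbered 7, then 0 without a filter, 0 without the variance trend, 17 with array weights, 23 with the replicate block, and 0 to 7 with 1 sample left out. Besides these and Jam3, the block changed no call among the genes named.

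Log2 fold changes that turned below 0 were those of Ly6a with normalised counts (-0.0586), rescaled FPKM (-0.0235), array weights (-0.0857) and the block (-0.0214), and of Sox18 with normalised counts (-0.0364), rescaled FPKM (-0.0024) and array weights (-0.0105). Array weights gave -0.42 for Acta2, -0.0941 for Tagln and -0.0583 for Myh11, and the block gave -0.28 for Acta2, -0.0630 for Myh11 and -0.0052 for Rgs5. With 1 sample left out the ranges were -0.10 to 0.11 for Ly6a, -0.0523 to 0.14 for Sox18, -0.0801 to 0.0789 for Sox17, -0.0230 to 0.17 for Ly6c1, -0.0052 to 0.30 for Rgs5, -0.12 to 0.35 for Higd1b, -0.28 to 0.52 for Acta2 and -0.0630 to 0.43 for Myh11. Myh11 was lost under a filter of 2 FPKM. Depth was lowest for Higd1b, with 39.0 reads in a sample, and the number of mice, 4 against 3, limits the precision of all values.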
